A study of Mus musculus with 4 samples.

Results

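The 44 genes described here encode the folding, quality control and export machinery of the endoplasmic reticulum (ER), together with the sensors and transcription factors of the ER stress response. The set was a list of gene symbols, and a probe belonged to it where its RefSeq accession maps to one of those symbols. All 44 genes lie on the array, among 22911 genes with a RefSeq symbol. They are read by 68 probes, of which 66 were bright enough to be tested, and every gene kept at least 1 tested probe. Proteins bound for secretion or for the cell surface enter the ER through a channel, the translocon, and are folded there by chaperones and by enzymes that form disulfide bonds. Folded cargo leaves in COPII-coated vesicles, escaped ER proteins are brought back by KDEL receptors, and misfolded proteins are drawn out and destroyed by ER-associated degradation. When unfolded proteins accumulate, the sensors Ern1 (IRE1), Eif2ak3 (PERK) and Atf6 start the unfolded protein response, which raises folding capacity and slows general translation. Cells that secrete much collagen need further helpers, which modify procollagen, fold it and fit its long rods into vesicles.

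RNA came from ID8G cells, a GFP-expressing form of the mouse ovarian cancer line ID8, and from GO2 cells, which were recovered from omental tumors after 2 successive passages of ID8G-derived cells through the peritoneal cavity of syngeneic mice. The cells taken from the omentum were sorted as GFP-positive and CD45-negative and were then cultured. Both lines were kept in one medium, DMEM with serum, insulin, transferrin and selenite. GO2 is a selected line, so that any clone or variant carried through the selection is shared by both of its samples. Each line was measured on 2 single-color Agilent arrays. The labels do not say whether the 2 samples of a line were separate cultures, so the p-values measure only the spread between these arrays, which may be technical. With 2 arrays against 2, no exact two-sided permutation test of a single gene can go below p = 0.333, and the tests below borrow the spread of all probes.

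The level of a probe is given on the log2 scale relative to the 75th percentile of the same array. That percentile was 675 and 668 intensity units for ID8G and 635 and 627 for GO2. All 4 arrays lay on 1 slide with the arrays of each line side by side, so that position on the slide and cell line cannot be told apart. No spot was saturated. Of 7 markers of ovarian surface and mesothelial cells, 6 were well above background on both arrays of each line. The summed linear level of the list was 655 to 661 in ID8G and 372 to 376 in GO2. The list was split, with Krt8, Krt18, Krt19 and Msln lower, Upk3b called higher at 1.08 on the log2 scale and Wt1 not past the test. Not well above background on any array were 4 of 6 macrophage, 3 of 4 endothelial, 3 of 5 lymphocyte and 2 of 4 adipocyte markers. The defining leukocyte marker Ptprc (CD45) is among these macrophage markers. By their brightest probes Csf1r, Cd4 and Cd3e had mean levels of 1.01, 1.35 and 1.09 in ID8G and 1.23, 1.28 and 1.27 in GO2, above the 75th percentile. Their other probes lay below it on every array. That of Csf1r ran from -0.73 to -0.43, that of Cd4 from -3.77 to -1.76 and was not tested. The other Cd3e probe ran from -3.16 to -2.75 and passed as higher. Cd68, Pecam1 and Lep were well above background but dimmer. None of these 6 genes passed the test by its brightest probe. The fibroblast list moved between the lines. Its summed level was 71.0 to 73.7 in ID8G and 211 to 216 in GO2. Of its 8 genes 5 were called higher (Col1a1, Col1a2, Col3a1, Pdgfra and Pdgfrb), and Dcn was lower at -0.63 on the log2 scale. Pdgfrb was not well above background in ID8G and entered the test only through its GO2 arrays, with a bound of at least 2.42-fold. Lum and Thy1 were not well above background on any array. The part of the fibroblast list in the results on the ER genes was not tested.

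These are bulk RNA samples, in which fewer cells of a kind and less RNA per cell cannot be told apart. In GO2 cells 17 of the 44 genes rose and 4 fell at an adjusted p below 0.05 (limma, Benjamini-Hochberg over all tested probes). This is 38.6% and 9.09% of the list, beside 21.0% higher and 20.0% lower among all 13215 genes tested. Of the 44 genes 3, Creb3l1, Kdelr3 and Derl3, were also higher by at least 2-fold, near the 5.98% of all genes tested that were. None was lower by that much, where 3.94% of all genes tested were. Derl3 entered the test only through its GO2 arrays, and with a filter on all 4 arrays 2 genes were called. Most changes that passed were under 2-fold, 14 of the 17 that rose and the 4 that fell. The same held for 1988 of 2778 and 2120 of 2641 among all genes tested. The median difference of GO2 minus ID8G was 0.07 on the log2 scale, with quartiles of -0.10 and 0.45, while that of all genes was -0.00 with quartiles of -0.20 and 0.21. Beyond Creb3l1, the genes that rose belonged to the KDEL receptors, COPII export, collagen folding, the degradation group, the chaperones and the disulfide isomerases, and those that fell were Ern1, Atf6, Atf4 and Derl1.

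The count depended on single arrays and on scaling. Without ID8G array 1, ID8G array 2, GO2 array 1 and GO2 array 2 the median difference of the 44 genes was 0.05, 0.10, 0.08 and 0.09. In each of these fits fewer of the 44 genes passed in either direction, and so did fewer of all genes tested. Creb3l1, Kdelr3, Derl3, Sec24d, Fkbp10, Crtap, Fkbp14 and Dnajb9 passed whichever array was left out, and none of the 4 lower genes did so in any of the 4 fits. Scaling to the spike-in RNAs lowered the median of all genes to -0.21 and that of the 44 genes to -0.13. Of the 44 genes 8 then passed as higher and 8 as lower, beside 1372 and 4214 of all genes tested. This scaling lowers every gene by 0.21, which works against genes that rose and favors those that fell. The 8 genes that passed whichever array was left out were the 8 that passed as higher with this scaling. Without the filter on dim probes 5 of the 44 genes passed as higher and 0 as lower, beside 1197 and 988 of all genes. The t-test of the study's methods, with Welch's correction, is given there for comparisons of 2 groups in general. No test is named there for the arrays. After Benjamini-Hochberg adjustment this t-test called 0 of the 44 genes, and over all genes tested it passed 0 as higher and 3 as lower. At an unadjusted p below 0.05 it had 15 of the 44 genes higher and 4 lower, where limma had 19 and 5. The counterpart of these unadjusted counts over all genes was not computed, so they show nothing particular to the 44 genes.

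**Figure D1:**
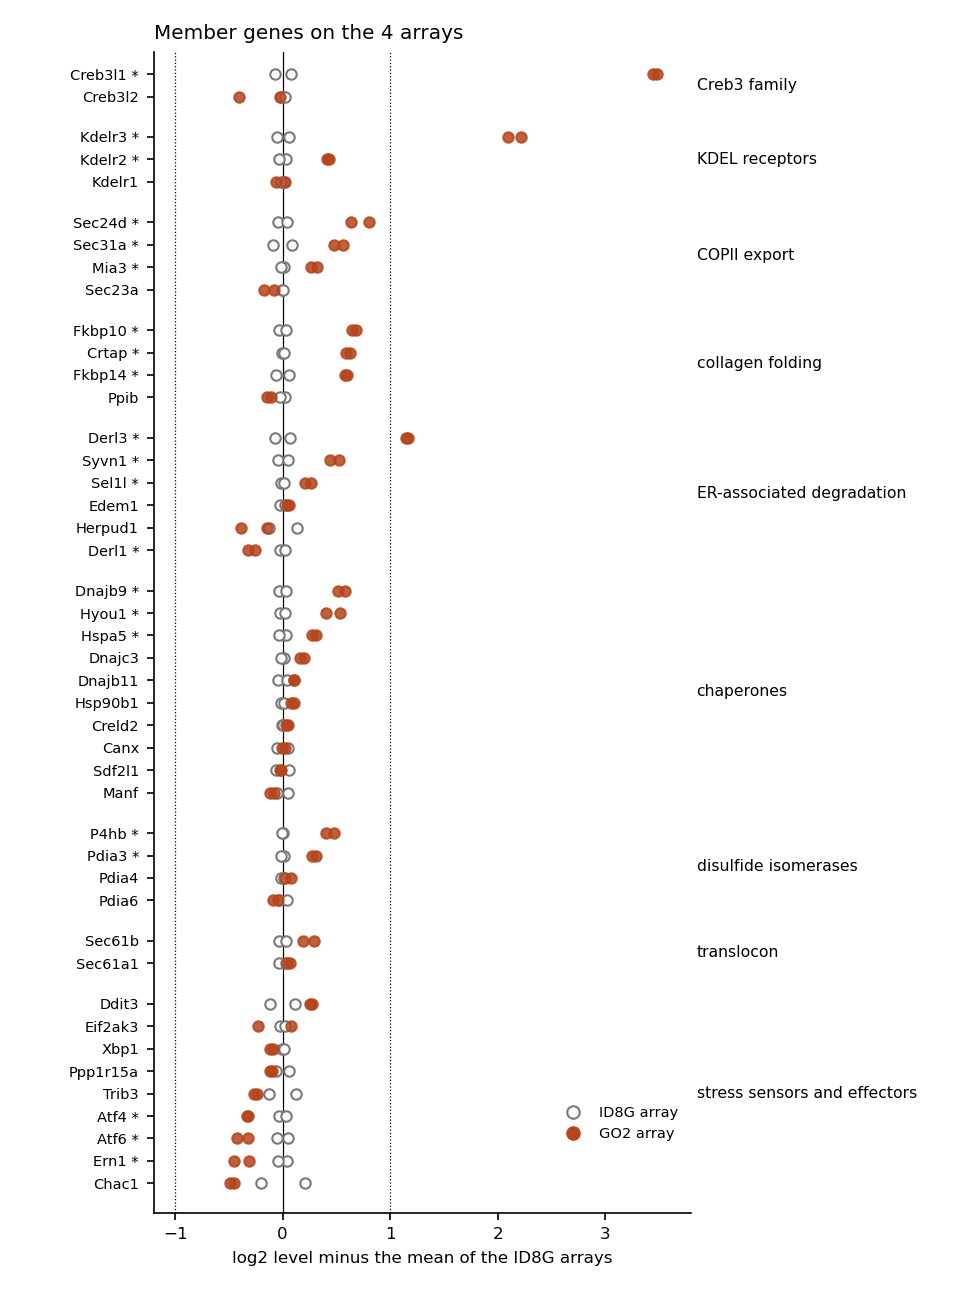
Each row is 1 of the 44 genes and each point 1 array, plotted as the log2 level minus the mean of the ID8G arrays, with open points for ID8G, filled points for GO2, an asterisk for an adjusted p below 0.05 (limma) and dotted lines at a 2-fold change. The filled points of Creb3l1, Kdelr3 and Derl3 lie beyond the line at 1. Those of the stress sensors and effectors lie close to 0 or to its left, apart from Ddit3, which lies to its right.

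The largest difference of the list was that of Creb3l1 (OASIS), an ER-membrane transcription factor that is released by proteolysis and is known for driving collagen genes and secretory genes in bone and fibroblasts. Its log2 level was -1.69 and -1.84 in ID8G, against 1.71 and 1.68 in GO2. Both GO2 arrays were thus far above both ID8G arrays, and the probe was well above background on all 4. The difference was 3.46 ± 0.07 on the log2 scale (SE, 2 arrays per line), an 11.0-fold higher level (adjusted p = 0.000208, limma), and leaving out any 1 array kept it between 3.39 and 3.54. Its relative Creb3l2 (BBF2H7), which regulates the COPII gene Sec23a in cartilage, was at 0.60 and 0.64 in ID8G and at 0.21 and 0.60 in GO2. The GO2 arrays of Creb3l2 disagreed with each other by more than the lines did, and its difference of -0.21 did not pass the test (adjusted p = 0.301, limma). With spike-in scaling it was -0.42 and passed.

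Of the 3 KDEL receptors, which bind the tail of ER-resident proteins in the Golgi and carry them back, 2 rose, and the median of the group was 0.42, or 0.22 with spike-in scaling. Kdelr3 was at -0.36 and -0.25 in ID8G and at 1.92 and 1.79 in GO2, without overlap. This is a difference of 2.16 ± 0.08 (SE) or 4.46-fold (adjusted p = 0.000421, limma). Kdelr2 rose by 0.42 (adjusted p = 0.00871, limma), but it did not pass without GO2 array 1, without GO2 array 2 or with spike-in scaling, where its difference was 0.22. Kdelr1 differed by -0.02 (adjusted p = 0.842, limma), and its arrays overlapped.

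Of the COPII genes 3 of 4 passed as higher, with a median of 0.41 for the group, or 0.20 with spike-in scaling. Sec24d, a cargo-binding subunit of the inner coat, was at 0.64 and 0.72 in ID8G and at 1.48 and 1.32 in GO2. Both GO2 arrays were above both ID8G arrays, by 0.72 ± 0.08 (SE) on average (adjusted p = 0.00628, limma). Sec31a, which builds the outer coat, rose by 0.52 and Mia3 (TANGO1), the receptor that loads procollagen into vesicles, by 0.29. Sec31a passed without ID8G array 2 but not without any of the other 3 arrays, Mia3 passed in none of the 4 fits, and neither passed with spike-in scaling. For Mia3, 1 of the other 2 probes passed as well, at 0.36, and the other was at 0.07 and did not. Sec23a, the partner of Sec24 proteins in the inner coat, differed by -0.13 (adjusted p = 0.172, limma).

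The promoters of Kdelr3 and Sec24d are shown because these genes had the largest differences of the retrieval and COPII groups and both windows hold TGACGTGG, the letters known as the unfolded protein response element, which ATF6, XBP1 and Creb3-type factors can bind. The windows run from 250 bases before the transcript start to 50 after it and come from RefSeq on GRCm38.p6. That table gave windows for 36 of the 44 genes, 38 in all. Capitals mark a match on either strand, and the reverse complement of TGACGTGG contains CCACG, which is also the end of the ER stress element described further on. The match lies at positions -30 to -23 in Kdelr3 on the reverse strand and at -26 to -19 in Sec24d, counted from the start.
Kdelr3, chr15:79516158-79516457, plus strand: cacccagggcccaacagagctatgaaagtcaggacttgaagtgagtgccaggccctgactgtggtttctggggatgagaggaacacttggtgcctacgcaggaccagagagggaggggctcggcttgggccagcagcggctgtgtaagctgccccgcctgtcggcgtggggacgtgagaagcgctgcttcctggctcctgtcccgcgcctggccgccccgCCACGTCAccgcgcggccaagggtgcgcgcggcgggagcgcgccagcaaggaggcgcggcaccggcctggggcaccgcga
Sec24d, chr3:123267246-123267545, plus strand: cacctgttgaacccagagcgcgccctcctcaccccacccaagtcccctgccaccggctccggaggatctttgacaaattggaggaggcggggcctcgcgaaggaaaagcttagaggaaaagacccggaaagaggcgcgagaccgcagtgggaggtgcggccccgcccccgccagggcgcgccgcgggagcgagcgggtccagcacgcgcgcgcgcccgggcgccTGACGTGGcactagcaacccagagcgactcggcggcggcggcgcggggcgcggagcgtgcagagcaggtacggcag
The same letters occur in 0.676% of all 32851 promoter windows. Of the genes described here, Kdelr3, Sec24d and Sec23a hold them, and Sec23a is the one of these that did not pass the test. A match describes the letters of a window and says nothing of whether a factor was bound there in these cells.

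Of the 4 collagen folding genes 3 passed as higher, and the median of the group was 0.60, or 0.39 with spike-in scaling. Fkbp10 (FKBP65), a prolyl isomerase and collagen chaperone whose loss causes brittle bone disease, was at 5.21 and 5.28 in ID8G and at 5.89 and 5.92 in GO2. The arrays of the lines did not overlap, and the difference was 0.66 ± 0.06 (SE) or 1.58-fold (adjusted p = 0.00307, limma). Crtap, which forms the complex that hydroxylates proline at a single site of each collagen chain, rose by 0.61 (adjusted p = 0.00304, limma), and Fkbp14, another collagen-binding isomerase, by 0.59 (adjusted p = 0.00588, limma). The dimmer probe of Fkbp14 rose by 0.51. All 3 genes passed whichever array was left out and with spike-in scaling. Ppib (cyclophilin B), the third member of the Crtap complex, did not pass. It was at 5.59 and 5.55 in ID8G and at 5.46 and 5.42 in GO2, a difference of -0.13 (adjusted p = 0.131, limma). The fibroblast markers that are collagen genes were higher on the same arrays, Col1a1 by 4.69, Col1a2 by 7.49 and Col3a1 by 4.20 on the log2 scale.

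**Figure D2:**
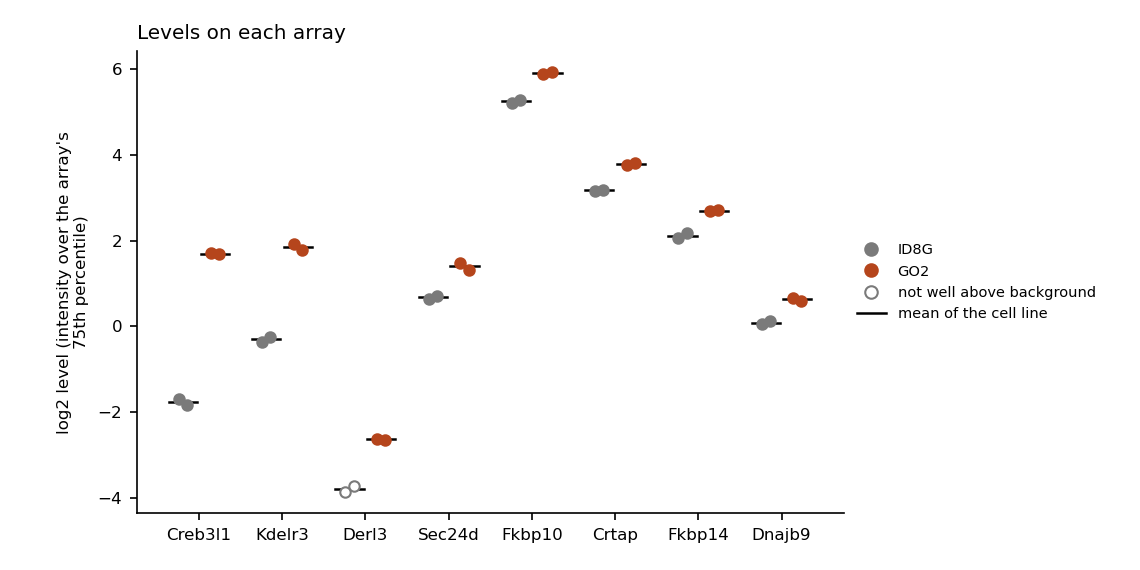
Log2 level, relative to the 75th percentile of the array, of the 8 genes that passed the test whichever array was left out, with 1 point per array, open where the probe was not well above background, and a line for the mean of each cell line. In each gene both GO2 arrays lie above both ID8G arrays, and heights are not comparable between genes because each is read by its own probe.

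In the degradation group 3 of 6 genes rose and 1 fell, with a median of 0.14 that was 0.03 with the mean of a gene's probes and turned to -0.07 with spike-in scaling. Derl3, a derlin of the channel that returns misfolded proteins to the cytosol and a classical target of the IRE1-XBP1 branch, was at -3.86 and -3.72 in ID8G and at -2.62 and -2.64 in GO2. The ID8G arrays were not well above background, so only a bound can be given, and Derl3 was at least 1.99-fold higher in GO2. The adjusted p of 0.00125 (limma) belongs to the measured means and does not test this bound. Since the probe of Derl3 passed the filter on dim probes only through the GO2 arrays, a difference was built into its selection. The measured means were 1.16 ± 0.07 (SE) apart on the log2 scale, 0.55 apart with normexp background correction and 0.95 with spike-in scaling. The 2-fold call ended under both, under limma treat and with the filter on all 4 arrays, where the probe was not tested. Syvn1 (HRD1), the ubiquitin ligase at the center of this pathway, rose by 0.48 (adjusted p = 0.00993, limma) and its cofactor Sel1l by 0.23 (adjusted p = 0.036, limma). The other Sel1l probe was at 0.04 and did not pass. Derl1 fell by 0.29 (adjusted p = 0.0246, limma). Herpud1, a scaffold of the complex and a strong stress target, was at -0.27 (adjusted p = 0.194, limma), while its second probe was lower by a similar amount, -0.33, and passed. Edem1, a lectin-like mannosidase that marks misfolded glycoproteins, was at 0.05, and its second probe at -0.21 passed as lower. Syvn1 did not pass without ID8G array 1 or without GO2 array 2, and Sel1l and Derl1 passed in none of the 4 fits. With spike-in scaling Syvn1, at 0.27, and Sel1l, at 0.03, did not pass, and Herpud1, at -0.47, passed as lower.

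Of 10 chaperones and cochaperones 3 rose and none fell, and the group median of 0.10 became -0.11 with spike-in scaling. Dnajb9 (ERdj4), a cochaperone of BiP that is induced through IRE1 and XBP1, was at 0.05 and 0.12 in ID8G and at 0.67 and 0.60 in GO2. The difference of 0.55 ± 0.06 (SE) or 1.46-fold was larger than the spread of either pair (adjusted p = 0.00567, limma). Its dimmer probe was at 0.34 and did not pass. Hyou1 (GRP170), a nucleotide exchange factor of BiP, rose by 0.47 (adjusted p = 0.0122, limma), and its other 2 probes, at 0.22 and 0.37, did not pass. Hspa5 (BiP, GRP78), the main ER Hsp70 and the usual readout of ER stress, rose by 0.29 or 1.22-fold (adjusted p = 0.0233, limma). Its other probes were at 0.22, which passed, and 0.20, which did not. Hspa5 no longer passed whichever array was left out, and Hyou1 did not without ID8G array 1 or GO2 array 2. Neither passed with spike-in scaling, at 0.08 and 0.26.

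The remaining 7 chaperones did not pass. Hsp90b1 (GRP94) was at 0.09, Canx (calnexin) at 0.01, Dnajc3 (p58IPK) at 0.18, Dnajb11 (ERdj3) at 0.11, Creld2 at 0.04, Sdf2l1 at -0.02 and Manf at -0.10 on the log2 scale. All but Manf and Sdf2l1 lay above 0. A second probe passed as higher for Canx, at 0.25, and for Dnajb11, at 0.19. Among the disulfide isomerases P4hb, which is also the beta subunit of the collagen prolyl 4-hydroxylases, was at 5.03 and 5.02 in ID8G and at 5.50 and 5.42 in GO2. The arrays did not overlap, and P4hb rose by 0.44 ± 0.06 (SE; adjusted p = 0.00865, limma). Pdia3 (ERp57), which works on glycoproteins with calnexin, rose by 0.29 (adjusted p = 0.0196, limma), while its second probe at 0.24 did not pass. Pdia4 (ERp72) was at 0.05 and Pdia6 (P5) at -0.07, neither past the test. The median of the isomerases, 0.17, became -0.04 with spike-in scaling, where neither P4hb nor Pdia3 passed. P4hb also did not pass without ID8G array 1 or without GO2 array 1, and Pdia3 in any of the 4 fits.

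The promoters of Hspa5 and Derl3 are shown because both genes rose and both windows hold the ER stress element, CCAAT, 9 bases, then CCACG, which ATF6 binds together with NF-Y. The choice was made with their values in view. Capitals mark the whole element with the bases in between, at positions -65 to -47 in Hspa5 and, on the reverse strand, at -156 to -138 in Derl3.
Hspa5, chr2:34771840-34772139, plus strand: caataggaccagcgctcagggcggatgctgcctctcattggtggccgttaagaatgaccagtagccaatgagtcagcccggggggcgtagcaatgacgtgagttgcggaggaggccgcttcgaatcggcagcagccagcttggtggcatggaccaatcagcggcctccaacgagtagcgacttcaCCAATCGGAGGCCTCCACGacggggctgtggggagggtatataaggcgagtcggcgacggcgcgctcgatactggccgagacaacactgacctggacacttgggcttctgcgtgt
Derl3, chr10:75893148-75893447, plus strand: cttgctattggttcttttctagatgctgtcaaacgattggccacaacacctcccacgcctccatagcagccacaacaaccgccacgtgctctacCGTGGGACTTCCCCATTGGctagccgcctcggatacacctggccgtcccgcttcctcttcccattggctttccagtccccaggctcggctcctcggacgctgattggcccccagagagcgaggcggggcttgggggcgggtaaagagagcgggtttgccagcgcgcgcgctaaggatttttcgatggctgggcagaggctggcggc
The element was found in 39 of 32851 windows (0.119%) and in 8 of the 36 member genes with a window, namely Canx, Creld2, Derl3, Dnajc3, Hsp90b1, Hspa5, Pdia6 and Syvn1. The differences of these 8 genes ran from -0.07 to 1.16 with a median of 0.13, and 3 of them passed as higher. Its second form, ATTGG, 1 base, then CCACG, is in 0.0365% of all windows and in those of Dnajb11 and Herpud1, neither of which passed by its brightest probe. TGATGNAA, the letters of the composite element that ATF4 and CHOP share, is in 3.97% of all windows and in those of Chac1, Herpud1, Kdelr1 and Trib3, whose differences ran from -0.47 to -0.02 and none of which passed.

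Of the 9 sensors and effectors of the stress response none passed as higher and 3 passed as lower, and the group median was -0.25, or -0.46 with spike-in scaling and -0.13 without ID8G array 2. The sensor kinase and RNase Ern1 fell by 0.38 (adjusted p = 0.0261, limma), the membrane-bound factor Atf6 by 0.37 (adjusted p = 0.0241, limma) and Atf4, the translation-controlled factor downstream of PERK, by 0.33 (adjusted p = 0.0164, limma). The second probe of Atf4 fell as well, by 0.44. All 3 genes no longer passed whichever array was left out. With spike-in scaling they passed, but that scaling lowers every gene by 0.21 and so favors genes that were already lower.

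The largest difference in size within this group was not called. Chac1, a glutathione-degrading enzyme induced by ATF4, was at 3.67 and 4.08 in ID8G and at 3.39 and 3.43 in GO2. The ID8G arrays of Chac1 lay 0.29 (SD) around their mean, the widest spread among the brightest probes of the 44 genes, and the difference of -0.47 did not pass (adjusted p = 0.0799, limma). Trib3, a pseudokinase induced by ATF4 and CHOP, was at -0.25, and like Chac1 it passed as lower with normexp background correction or spike-in scaling. Ddit3 (CHOP), the proapoptotic factor of prolonged stress, was at 0.26 (adjusted p = 0.105, limma), the only one of the 9 above 0. Eif2ak3 was at -0.08 with overlapping arrays, Ppp1r15a (GADD34), which restores translation, at -0.11, and Xbp1 at -0.10 with its other 2 probes at -0.06 and -0.05. The probes report the level of Xbp1 RNA and not its splicing by IRE1, as they do not report cleavage of Atf6 or of Creb3l1.

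By their brightest probe neither translocon gene passed the test, with a group median of 0.15 that became -0.06 with spike-in scaling. Sec61b was at 7.11 and 7.17 in ID8G and at 7.43 and 7.33 in GO2, where the GO2 arrays were higher by 0.24 ± 0.06 (SE; adjusted p = 0.0536, limma). The other Sec61b probe, at 0.23, passed at an adjusted p of 0.0486 (limma). Sec61a1, the channel itself, was at 0.06, but its other 2 probes rose by 0.26 and 0.24. In all, 12 of the 17 genes with several probes had probes on different sides of the threshold or of 0, and 27 genes have 1 tested probe. By any probe and in either direction 27 of the 44 genes passed. That count rises with the number of probes of a gene, and its counterpart over all genes was not computed.

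Further genes of the same pathways, 149 in number and 143 of them tested, were counted in the same way. Of these, 35 rose and 18 fell, or 24.5% and 12.6% of those tested, with a median of 0.07 that became -0.14 with spike-in scaling, and 9 were called higher and 3 lower at 2-fold. With spike-in scaling 15 passed as higher and 28 as lower. The other collagen folding genes had the highest median, 0.42, or 0.22 with spike-in scaling, with 10 of 18 higher, 1 lower and 6 called. The largest changes were those of P3h2, P4ha2 and P3h3, which hydroxylate prolines of collagen. P3h2 was not well above background in ID8G, entered the test only through its GO2 arrays and was at least 4.29-fold higher in GO2. P4ha2 rose by 1.91 and P3h3 by 1.69 on the log2 scale. Among 29 other coat and cargo genes 9 rose and 1 fell, and the COPII scaffolds Sec16b and Sec16a rose by 1.87 and 0.51 and the cargo receptor subunit Mcfd2 by 0.62. The dimmer Sec16a probe was at 0.30 and did not pass.

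Of 15 other chaperones and lectins 4 rose and 3 fell. Calr (calreticulin) rose by 0.76 and the folding sensor Uggt1 by 0.56. Calr3, a testis-type calreticulin, was not well above background in GO2, entered the test only through its ID8G arrays and was at least 1.96-fold lower in GO2. Of 14 other oxidoreductases 2 rose and 4 fell, with Qsox1, which oxidizes secreted proteins, higher by 1.18, Ero1a, the oxidase of the disulfide isomerases, lower at -1.46, and Pdia5 at -0.40. Of 19 other stress response genes 3 rose and 5 fell, with Vldlr, a lipoprotein receptor, at 2.29, Ddit4 (REDD1), an inhibitor of mTORC1, at -1.80 and Atf5 at 0.67. Of 19 other degradation genes 4 rose and 4 fell, among them Faf2 at -0.59, Ube2j2 at 0.35 and the ATPase Vcp at 0.34. Of 28 genes of the translocon, signal peptidase and oligosaccharyltransferase 3 rose and none fell, Ssr1 by 0.37, Ddost by 0.34 and Srp72 by 0.27, where 1 other probe of Ssr1 and 2 of Srp72 did not pass. The other Creb3 relatives gave 1 tested gene of 3, and it did not pass.

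**Figure D3:**
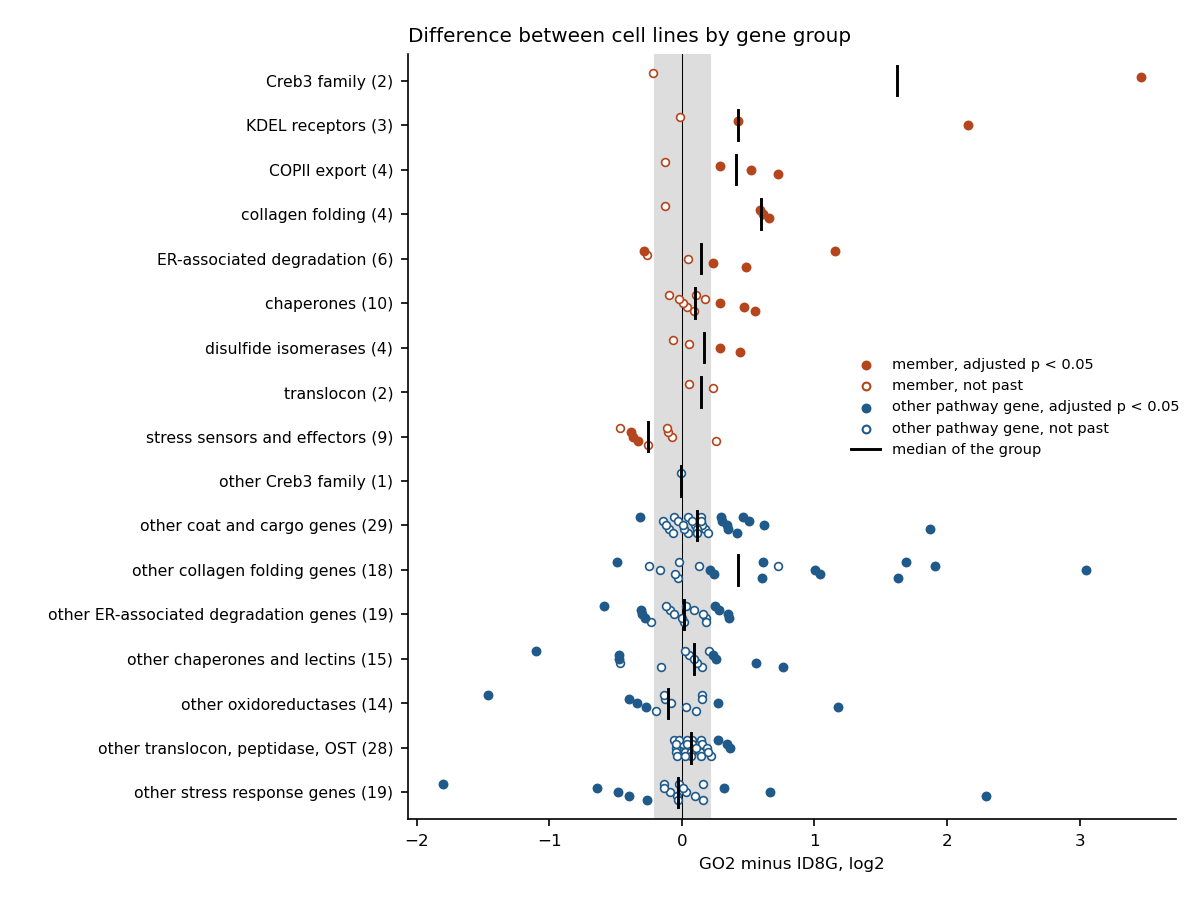
Difference of GO2 minus ID8G on the log2 scale for each gene, by group, with the number of genes tested in parentheses, filled points for an adjusted p below 0.05 (limma), a bar at the median of the group and a grey band for the middle of all genes tested, from -0.20 to 0.21. The medians of the KDEL receptors, COPII export, both collagen folding groups and the Creb3 family lie to the right of the band and that of the stress sensors and effectors to its left. The Creb3 family median is that of 2 genes that disagree, Creb3l1 at 3.46 and Creb3l2 at -0.21.

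**Figure D4:**
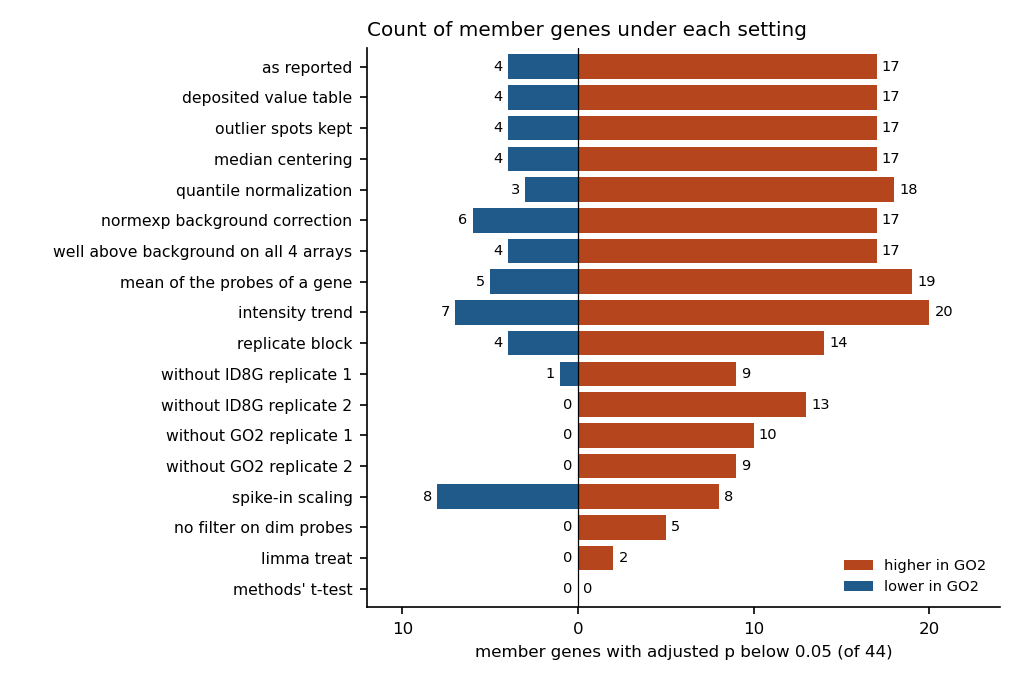
Number of the 44 genes with an adjusted p below 0.05 under each setting, with bars to the right for genes higher in GO2 and bars to the left for genes lower. The count as reported is 17 and 4. The higher count ranges from 0 with the t-test of the methods to 20 with an intensity trend in the variance, and the lower count from 0 to 8, the latter with spike-in scaling.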

How the data were processed

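RNA of ID8G and of GO2 cells was labeled with Cy3 and hybridized to 4 Agilent SurePrint G3 mouse arrays, 2 per cell line. The authors deposited the linear, background-corrected intensity of each spot (Feature Extraction 11.5.1.1), with no scaling between arrays. A deposited GeneSpring table holds log2 values relative to the 75th percentile, centered per probe, and served for 1 alternative only. Of its sample columns, 0 were left unused. Supplementary fold changes were not used.

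Groups came from the cell line named in the labels. Spots marked as outliers were left out, the spots of a probe were averaged, and log2 intensities were set relative to the 75th percentile over the probes of an array. A probe was tested where both arrays of a line were well above background (28370 of 56605). The test was limma 3.58.1 (R 4.3.3) on cell line alone, with Benjamini-Hochberg adjustment over all tested probes. A gene was called at an adjusted p below 0.05 and a difference of at least 2-fold, and rose or fell at that adjusted p. The tested probe with the highest mean level stood for its gene. Where a line was not well above background, the bound compares the bright mean with the dim line's floor, the higher per array of the lowest signal among probes well above background and the probe's own. The number of arrays limits the precision. Symbols came from RefSeq accessions (58.3% of probes matched) and promoters from RefSeq, GRCm38.p6. Protein sequences were not used here.

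Every member is given. Those called and the largest difference in each group have the level on every array, and at most 3 genes of each further list are named, by size of difference among those that passed. The members and lists were chosen with earlier results of these data known. Alternatives were normexp background correction (offset 50), quantile, median and spike-in scaling, no filter or a filter on all 4 arrays, outlier spots kept, an intensity trend, limma treat (minimum log2 difference of 1), the methods' t-test (Welch's correction), the deposited table, the replicate number as a block, the mean of a gene's probes and each array left out. The procedure was tested on simulated data. Figures were drawn with matplotlib 3.10.9 in python 3.11.15.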

Additional observations from a re-analysis of the deposited data

How the results depend on the processing

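Of the 44 genes' differences under the alternatives, 747 values in all, none that passed the test reversed. Of these values 613 stayed on the same side of the threshold, 114 no longer passed and 20 newly passed. The 613 include genes that passed in neither fit, whatever their sign. The intensity trend, limma treat, the t-test and the replicate block leave each difference unchanged, so a reversal was not possible under them. The count of genes higher in GO2, 17, became 8 with spike-in scaling, 5 without the filter on dim probes, 2 with limma treat and 0 with the methods' t-test, and ran from 9 to 13 with an array left out. The count lower, 4, became 8 with spike-in scaling, 7 with an intensity trend, 0 without the filter, with limma treat and with the t-test, and ran from 0 to 1 with an array left out. The genes called at 2-fold, 3 in the reported fit, and the further pathway genes called, 12, both became 0 with the t-test, and the former 2 with normexp background correction, spike-in scaling, limma treat and the filter on all 4 arrays. Spike-in scaling also moved the share of higher genes among those that passed from 81.0% to 50%, and that over all genes tested from 51.3% to 24.6%, with 7 spike-ins differing by 0.15 to 0.28 between the lines. The median of the 44 genes, 0.07, became 0.11 with quantile normalization, -0.13 with spike-in scaling and 0.13 with the mean of a gene's probes. The counts over all genes tested fell as well with an array left out, without the filter, with limma treat and with the t-test. The causes were not tested.

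No pairing by array number was visible, as the deviations of same-numbered arrays correlated with r = 0.03 across probes. This value cannot show whether the samples were prepared in pairs. Under the replicate block 14 genes passed as higher and 4 as lower, 3 of the latter among the 4 of the reported fit, and 3 were called. In the fits without 1 array the lone array of its line was assumed to vary like the others. The slide could not be used as a block because there was 1 slide. Differences are limited by the 2 arrays of each line and, for Derl3, by a signal near background in ID8G.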
